A study of Glycine max with 4 samples.

Results

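GmWRI1 peaks at homeobox, MYB and bZIP genes were read in early maturation (em) embryos of soybean, cultivar Williams 82, taken from seeds measuring 6 to 7 mm. GmWRI1, related to WRINKLED1 of Arabidopsis, is a transcription factor (TF) of the AP2 class that promotes fatty acid synthesis during seed filling. The study comprised 2 ChIP samples, immunoprecipitated with a rabbit antibody raised against a peptide of Glyma.08G227700, and 2 samples of input chromatin taken without antibody. All 4 samples came from untreated, wild-type embryos, and per the study's methods the antibody also recognizes the second GmWRI1 protein (Glyma.15G221600), so the peaks do not separate the proteins. Each of the 2 ChIP replicates had a list of peaks, called against input, and each peak had a fold enrichment, which sets the ChIP reads at its summit against the local background.

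The genes were chosen by their descriptions in the study's list of genes bound by GmWRI1 in em stage embryos. A gene was taken when its description contained homeobox, myb domain, myb-like or bZIP, and not auxin. The part of that list read here held 445 genes, all on chromosome 1, with listed regions that began between 0.222 and 54.5 Mb. Of these, 7 genes met the rule, 2 of the homeobox, 3 of the MYB and 2 of the bZIP family, in 8 listed regions. The rest of the list was not analysed here, so the families were described from their chromosome 1 genes and not across the genome. Because membership required a reproducible GmWRI1 peak in these same libraries, the presence and strength of peaks were given as descriptions without a test.

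The 3 families are among the large groups of plant TFs. Homeobox genes encode proteins with a homeodomain, a helix-turn-helix fold that contacts DNA, and are best known for roles in meristem identity, organ polarity and growth. MYB proteins bind DNA through MYB repeats and control, among other processes, phenylpropanoid, suberin and stress pathways. The bZIP proteins dimerize through a leucine zipper, contact DNA through a basic region that often reads an ACGT core, and include regulators of flowering and of abscisic acid responses in seeds.

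The list of replicate 1 held 22982 peaks, with a median of 37 reads at the summit and a median fold enrichment of 3.92. The list of replicate 2 held 20027 peaks, with a median of 26 reads and a median fold enrichment of 4.71. The local background was at least 7.17 reads in the replicate 1 list and at least 3.80 reads in that of replicate 2. Intervals given below are exact Poisson intervals of the summit reads at the 95% level, scaled to fold enrichment, and cover counting error only.

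All 7 genes had a peak in both deposited lists. Among all 445 genes of the chromosome 1 list the share was 92.8%, and the list was itself made from these libraries, so that nothing about the 7 genes is read from this count. Their mean fold enrichment over both replicates ran from 4.52 to 16.7, with a median of 6.61. The 3 highest genes kept the same order in both replicates, with the homolog of *MYB73* first, a homolog of *PERIANTHIA* (*PAN*) second and the homolog of *MYB9* next. The differences between the first and the second gene (3.69) and between the second and the third (4.78) were larger than the SD of either gene over the replicates. The Poisson intervals of the first and the second gene nevertheless overlapped in both replicates. Those of the second and the third gene overlapped in replicate 2. The order of the other 4 genes differed between replicates, and from the third gene down no gene differed from the next by more than the larger of their SDs.

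**Figure D1:**
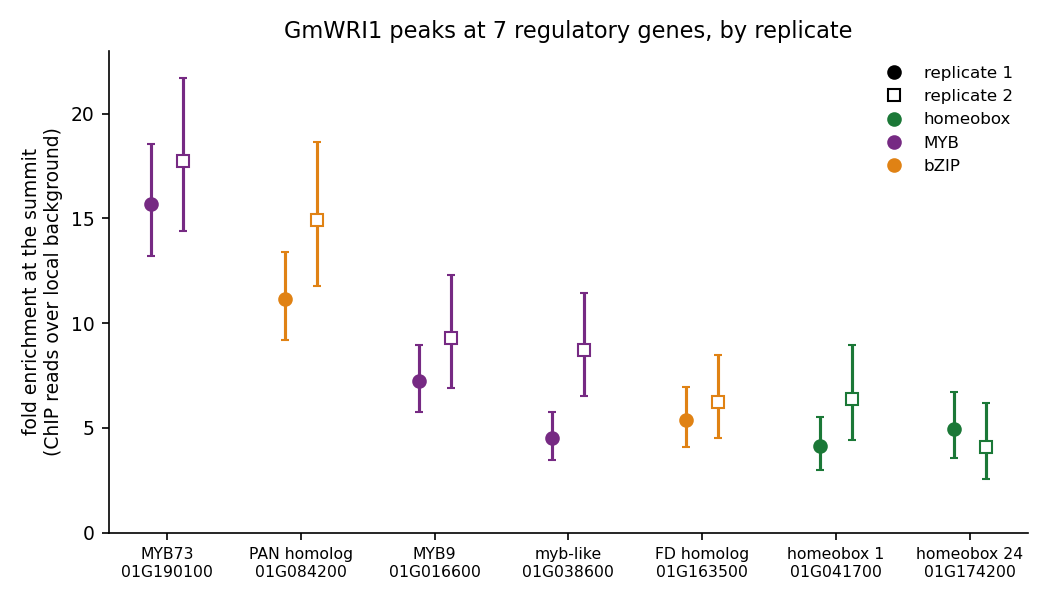
Fold enrichment at the summit (y axis) of the strongest GmWRI1 peak at each of the 7 genes (x axis), in replicate 1 (filled circles) and replicate 2 (open squares), coloured by family. Bars are 95% Poisson intervals of the summit reads. *MYB73*, the *PAN* homolog and *MYB9* took the first 3 places in both replicates, whereas the remaining 4 genes changed places between 4.08 and 8.73.

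The homeobox genes had the lowest mean values of the 7 genes. Of their 4 strongest peaks, 3 lay above the median of all peaks of their list (3.92 in replicate 1 and 4.71 in replicate 2). Strongest peaks at the 406 other genes of the chromosome 1 list with a peak in both replicates had higher medians, 5.72 and 5.95. Nothing is therefore read from counts of peaks above a list median. The *homeobox 1* gene (Glyma.01G041700; Arabidopsis homolog *ATHB1*, a homeodomain-leucine zipper gene linked to leaf development) had a fold enrichment of 4.13 in replicate 1 (interval, 3.02 to 5.53) and 6.39 in replicate 2 (4.43 to 8.95). On chromosome 1 its peak spanned 4530167 to 4530695 (replicate 1) and 4530245 to 4530961 (replicate 2). These and later positions are as deposited; the study's gene lists use the Wm82.a2.v1 annotation, and the sources used here do not give the build of the alignment. The replicate 1 value exceeded 54.5% of all peaks of its list, and the replicate 2 value exceeded 72.5%. Among all single peaks, the gene thus stood near the middle of the replicate 1 list and in the upper part of the replicate 2 list. The intervals of the replicates overlapped. By its mean the gene stood above 40.6% of the 406 other genes, each also measured by its strongest peak. Shares of a list given below are likewise over all single peaks.

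The *homeobox protein 24* gene (Glyma.01G174200; homolog *ATHB24*, or *ZHD6*, of the zinc finger-homeodomain group) had a fold enrichment of 4.97 in replicate 1 (interval, 3.58 to 6.72) and 4.08 in replicate 2 (2.57 to 6.19). It was the only one of the 7 genes with the lower value in replicate 2. Its peak in replicate 2 rested on 20 reads at the summit, the fewest of any strongest peak in this set, over a background of 4.15 reads, and had a −log10 q of 6.12. The replicate 1 value exceeded 68.0% of its list and the replicate 2 value 32.0%. The replicate 2 peak was also the only one of the 14 strongest peaks (7 genes in 2 replicates) below the median of its list. That median is over all single peaks and not over the strongest peaks of genes. The peak lay at 51108495 to 51108801 in replicate 1, and the summits of the replicates were 2 bp apart.

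The MYB genes included the strongest peak of the set. The *MYB73* gene (Glyma.01G190100), whose Arabidopsis homolog belongs to a group of stress-responsive MYB genes, had a fold enrichment of 15.7 in replicate 1 (interval, 13.2 to 18.6) and 17.8 in replicate 2 (14.4 to 21.7). The summits held 136 and 94 reads over backgrounds of 7.72 and 4.35 reads. The values exceeded 95.5% of the replicate 1 list and 94.7% of the replicate 2 list. The peak spanned 52501096 to 52501730 (replicate 1) and 52501105 to 52501670 (replicate 2), with the summits 17 bp apart.

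The *MYB9* gene (Glyma.01G016600), whose Arabidopsis homolog promotes suberin deposition in the seed coat, was intermediate. Its fold enrichment was 7.23 in replicate 1 (interval, 5.78 to 8.94) and 9.30 in replicate 2 (6.88 to 12.3), from 83 and 47 summit reads. The peak lay at 1592240 to 1592762 in replicate 1, and the summits were 6 bp apart. In each replicate the value lay above those of the 4 weaker genes. Its interval overlapped those of the *FD* homolog and *homeobox 24* in replicate 1. In replicate 2 it overlapped those of the *myb-like* gene, the *FD* homolog and *homeobox 1*, and also that of the stronger *PAN* homolog.

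That next gene, a *myb-like* gene (Glyma.01G038600; homolog AT1G70000), differed most between the replicates. It had a fold enrichment of 4.50 in replicate 1 (interval, 3.45 to 5.77) and 8.73 in replicate 2 (6.52 to 11.5), a ratio of 1.94, and the intervals did not overlap. The summit reads were 60 in replicate 1 and 50 in replicate 2, a ratio of 0.833, the highest of the 7 genes. The local background of this gene stood at 12.5 reads in replicate 1, against 4.84 in replicate 2, and their ratio of 2.59 was likewise the highest of the 7 genes. The gene's place in the order, the sixth in replicate 1 and the fourth in replicate 2, thus moved together with the local background, and the part of the background in this difference was not tested. The peak lay at 4129579 to 4129989 in replicate 1.

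The bZIP genes differed from each other. The *PAN* homolog (Glyma.01G084200), whose Arabidopsis counterpart AT1G68640 sets the number of floral organs, had a fold enrichment of 11.2 in replicate 1 (interval, 9.21 to 13.4) and 14.9 in replicate 2 (11.8 to 18.6). The values exceeded 91.8% and 93.1% of the lists. The peak was also the widest of the set, with 1707 bp in replicate 1 (24687793 to 24689499) and 1479 bp in replicate 2 (24687821 to 24689299), wider than 97.1% and 96.6% of all peaks.

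This was also the only gene of the 7 with more than 1 listed region. The other region held a narrow, weak peak in both replicates, with a fold enrichment of 2.89 in replicate 1 and 4.07 in replicate 2. Its summit lay 2028 bp from the strong summit in replicate 1 and 2115 bp in replicate 2. The strong peak exceeded the weak one 3.86 times in replicate 1 and 3.67 times in replicate 2. The weak peak rested on 27 and 20 summit reads, was 211 and 194 bp wide, and its summits lay 102 bp apart between replicates. With so few reads, whether the 2 sites kept their proportion was not settled. Apart from the strong and the weak peak, no peak had its summit within 10 kb of the strong summit in either replicate, and the nearest was 125 kb away.

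The other bZIP gene, a homolog of *FD* (Glyma.01G163500; AT4G35900), whose Arabidopsis counterpart acts with the florigen FT at the shoot apex, had a modest peak. Its fold enrichment was 5.38 in replicate 1 (interval, 4.09 to 6.96) and 6.26 in replicate 2 (4.50 to 8.50), from 56 and 39 summit reads. These values exceeded 72.2% and 71.7% of the lists, the closest match between the lists of the 7 genes. By its mean the gene stood above 49.3% of the 406 other genes. The peak lay at 50118077 to 50118765 in replicate 1, with its summit toward the upper end of the interval, and the summits of the replicates were 4 bp apart.

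**Figure D2:**
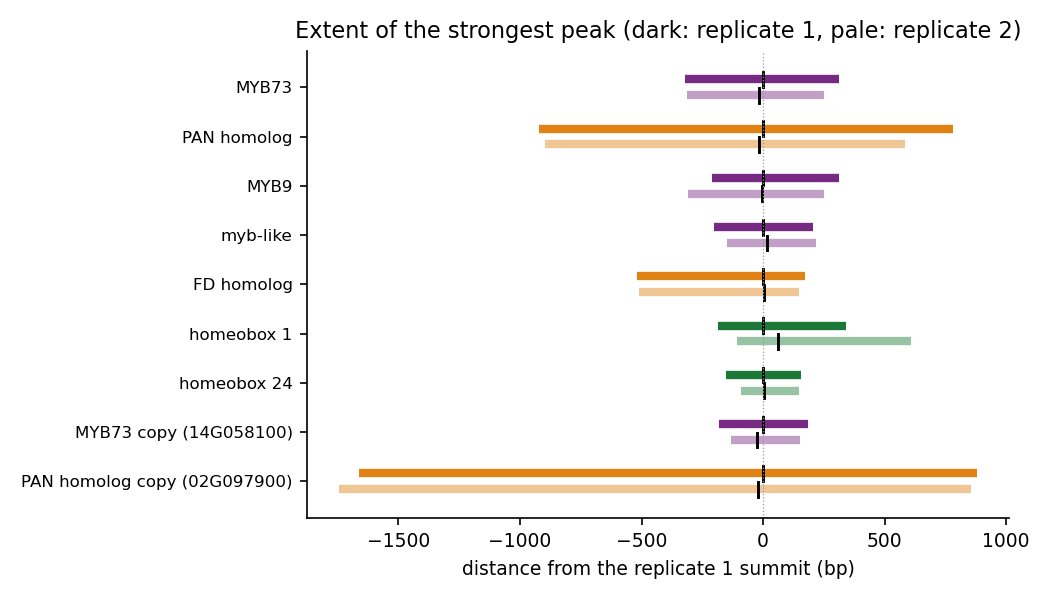
Extent of the strongest peak (bars) and its summit (black ticks) as distance in bp from the replicate 1 summit (x axis), for the 7 genes and the chromosome 14 and chromosome 2 copies of *MYB73* and the *PAN* homolog (rows). Copies are genes with the same Arabidopsis homolog. Dark bars are replicate 1 and pale bars replicate 2. The *PAN* homolog and its copy had the widest peaks, with means of 1593 and 2574 bp, against 275 to 674.5 bp at the other 6 genes.

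Summits were placed alike in both replicates. They lay 2 to 61 bp apart, and within 20 bp at 6 of the 7 genes, the exception being *homeobox 1*. The median distance was 15 bp, against 36 bp at the 406 other genes of the chromosome 1 list with a peak in both replicates. At the other genes of the cotyledon stage list, described below, the median was 17 bp. The share of other genes within 20 bp was not computed, so nothing particular to the 7 genes is read from these distances. At 4 of the 7 genes, namely the *PAN* homolog, *MYB9*, *homeobox 1* and *homeobox 24*, no peak outside the gene's own listed regions had its summit within 10 kb in either replicate. The matching share of the other genes was not computed here, so nothing about the 7 genes is read from this count. The *myb-like* gene had 3 neighbouring peaks within 10 kb in replicate 1 and 2 in replicate 2. In replicate 1 the strongest of these neighbours, at 5.35-fold, stood above the gene's own 4.50-fold, whereas in replicate 2 the gene's own 8.73-fold stood above its neighbours' highest 6.91-fold. Whether summits lay in exons, introns or upstream regions was not analysed here. The study assigned a peak to a gene when it fell in the gene body or within 1 kb upstream of its transcription start site.

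The fold enrichment was higher in replicate 2 at 6 of the 7 genes, and higher in 62.1% of the 406 other genes. Summit reads were lower in replicate 2 at every one of the 7 genes, with ratios of replicate 2 to replicate 1 from 0.50 at *homeobox 24* to 0.833 at the *myb-like* gene (median, 0.691). The median ratio over the 406 other genes was 0.645. The local background was 1.75 to 2.59 times higher in replicate 1 at the 7 genes (median, 2.19), against a median of 1.83 at the other genes. Fewer reads and a still lower background therefore went together in replicate 2, and the part of the background in the replicate difference was not tested.

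**Figure D3:**
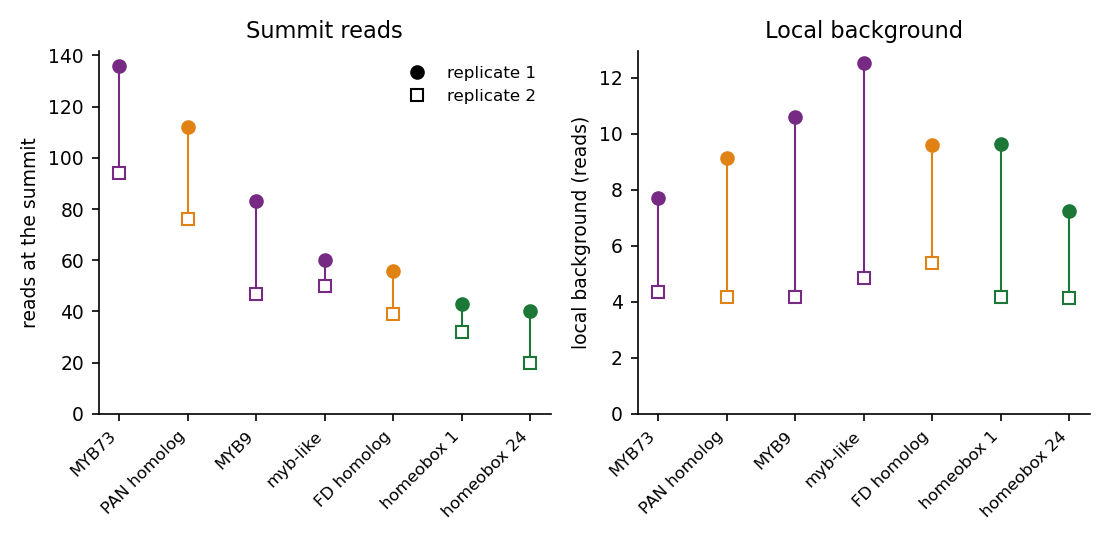
Reads at the summit (left, y axis) and local background in reads (right, y axis) of the strongest peak at each of the 7 genes (x axis), in replicate 1 (filled circles) and replicate 2 (open squares), coloured by family as in the plot of fold enrichment. Both quantities were lower in replicate 2 at each gene, with 20 to 94 summit reads against 40 to 136 in replicate 1.

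The families were then compared with each other and with the rest of the chromosome 1 list. The homeobox genes had the lowest median of the mean fold enrichment, 4.89, followed by 8.26 at the MYB genes and 9.43 at the bZIP genes. By the mean over both replicates, both homeobox genes (4.52 ± 0.629 and 5.26 ± 1.60; SD, n = 2) lay below the lowest bZIP gene (5.82 ± 0.622) and the lowest MYB gene (6.61 ± 2.99). The families nevertheless overlapped within each replicate. In replicate 1, *homeobox 24* at 4.97 stood above the *myb-like* gene at 4.50. In replicate 2, *homeobox 1* at 6.39 stood above the *FD* homolog at 6.26. With 2 or 3 genes a family, the order of the families is a description of these genes.

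The MYB and bZIP families did not separate. The MYB values covered 6.61 to 16.7 and the bZIP values 5.82 to 13.0, so each of these families held a strong gene and a gene close to the middle of the list. Their weakest and strongest genes were farther apart than any family medians.

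As a group, the 7 genes lay close to the middle of the list. Their median of 6.61 was 1.12 times the median of 5.92 at the 406 other genes. Over every gene with a peak in the replicate concerned, the ratio was 1.48 in replicate 2 alone and 0.972 in replicate 1 alone. Over both replicates it was 0.946 when only peaks with a −log10 q of at least 10 were kept, so its direction was not stable. Of the 7 genes, 4 lay above the median of the other genes, 2 above their upper quartile (9.29) and 0 below their lower quartile (4.52, just under the 4.52 of *homeobox 24* before rounding). *MYB73* stood above 88.4% of the other genes, the *PAN* homolog above 84.2% and *MYB9* above 69.2%. The *myb-like* gene stood above 56.4%, the *FD* homolog above 49.3%, *homeobox 1* above 40.6% and *homeobox 24* above 25.1%. The 7 genes were thus spread from the lower quartile of the list upward without reaching its top. The 3 strongest other genes reached 60.9 ± 17.3 at Glyma.01G153300 (described as a cytochrome P450), 56.9 ± 14.4 at Glyma.01G022400 (a protein kinase) and 54.5 ± 9.12 at Glyma.01G048000 (a protein of unknown function).

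**Figure D4:**
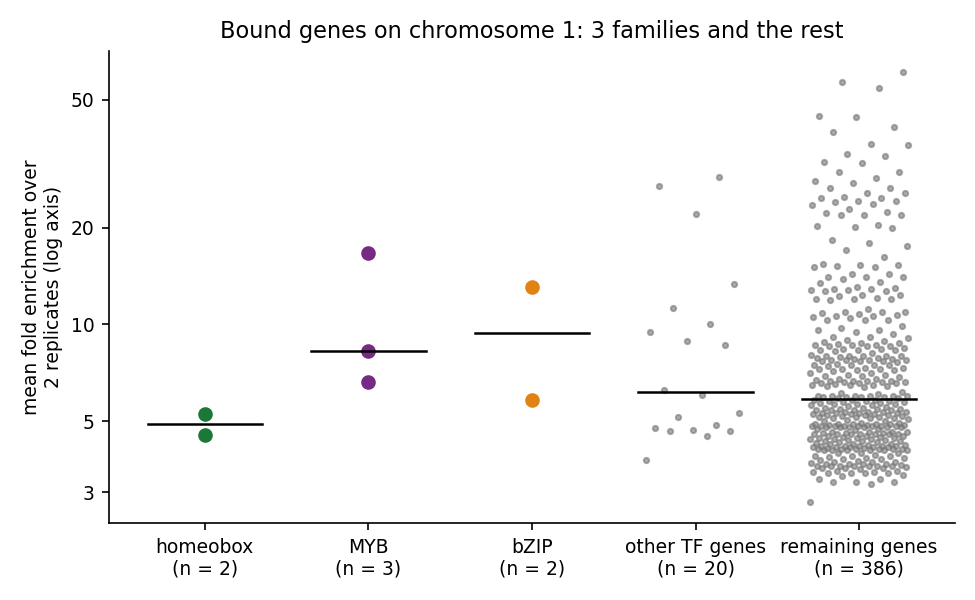
Mean fold enrichment over the 2 replicates (y axis, log scale) of each gene on the chromosome 1 list with a peak in both replicates, for the homeobox, MYB and bZIP genes, other TF genes and the remaining genes (x axis). Points are genes and black lines are medians. The 3 families lay between 4.52 and 16.7, inside the range of the other genes, which reached 60.9.

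Strong peaks were defined as the top 10% of each replicate's list, at a fold enrichment of at least 9.85 in replicate 1 and 11.8 in replicate 2. *MYB73* and the *PAN* homolog met this rule in both replicates, which made 2 of 7 genes, and 17.1% of all genes on the chromosome 1 list met it. Nothing is read from this count, because peaks of the same libraries chose the genes.

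The 7 genes were also set beside genes of other TF families on the same list, chosen by their descriptions (among them bHLH, AP2/ERF, WRKY, GRAS, MADS-box, TCP and DOF genes). The list held 22 of these, of which 20 had a peak in both replicates. Their median was 6.16 (range, 3.77 to 28.9), and the 7 genes stood at 1.07 times this value. Over every gene with a peak in the replicate concerned, the ratio was 1.43 in replicate 2 alone and 0.888 in replicate 1 alone. Over both replicates it was 0.763 when peaks below a −log10 q of 10 were dropped. The rule for strong peaks was met by 5 of these 22 genes. The group was set by descriptions alone. Its highest gene was described only by general terms, among them sequence-specific DNA binding transcription factors. The homeodomain genes described below were not counted in the group.

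By the mean over both replicates, peaks at the bZIP genes were wider than those at the other 5 genes, although in replicate 2 the peak at *homeobox 1* (717 bp) was wider than that at the *FD* homolog (660 bp). The mean width over both replicates was 275 bp at *homeobox 24*, 623 bp at *homeobox 1*, 389.5 to 600.5 bp at the MYB genes, and 674.5 and 1593 bp at the bZIP genes. The median over the 7 genes was 600.5 bp, against 550.5 bp over the 406 other genes. *Homeobox 24* was wider than 4.93% of the other genes, and the *PAN* homolog was wider than 92.4%.

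Genes with related descriptions lay just outside the rule. On the chromosome 1 list, 4 genes had a description with homeodomain in place of homeobox, and they were named here after their values were seen. The *BEL1-like homeodomain 2* gene (Glyma.01G179900), of a class whose proteins pair with KNOTTED-type homeodomain proteins, had a fold enrichment of 14.7 in replicate 1 and 11.1 in replicate 2. The other 3 genes were described as homeodomain-like, and their Arabidopsis homologs are MYB-related (GARP) or trihelix genes, not homeobox genes. They had means of 8.03 ± 2.55 (Glyma.01G183700), 5.61 ± 2.09 (Glyma.01G009600) and 4.79 ± 1.48 (Glyma.01G150500).

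To place the 7 genes among further genes of their families, em stage peaks were read at regions that the study had listed for cotyledon (cot) stage embryos, an earlier stage. The part of that list read here held 1884 genes, and the same rule found 20 genes besides *MYB73* and the *myb-like* gene, which were on both lists. Only the positions were used, and the values below are em stage values. These regions were picked on other libraries, which the study reports as failing the ENCODE thresholds for ChIP-seq quality that its em stage libraries met. They are a selection of their own. The 1851 other genes on this list with a peak in both replicates had a median of 13.6, against 5.92 on the chromosome 1 list. The lists were therefore not pooled.

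All 20 of these family genes had an em stage peak in both replicates, as had 99.4% of the genes on the cot stage list. Their median was 9.12 (range, 4.19 to 32.4), and 6 of the 20 lay above the median of the other genes on this list. Of the 20, 9 met the rule for strong peaks in both replicates, against 57.8% of all genes on the list. By family the medians were 10.5 at 8 homeobox genes, 12.3 at 6 MYB genes and 8.96 at 6 bZIP genes. The order of the families thus differed from that of the chromosome 1 genes, where the bZIP genes had the highest median and the homeobox genes the lowest.

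**Figure D5:**
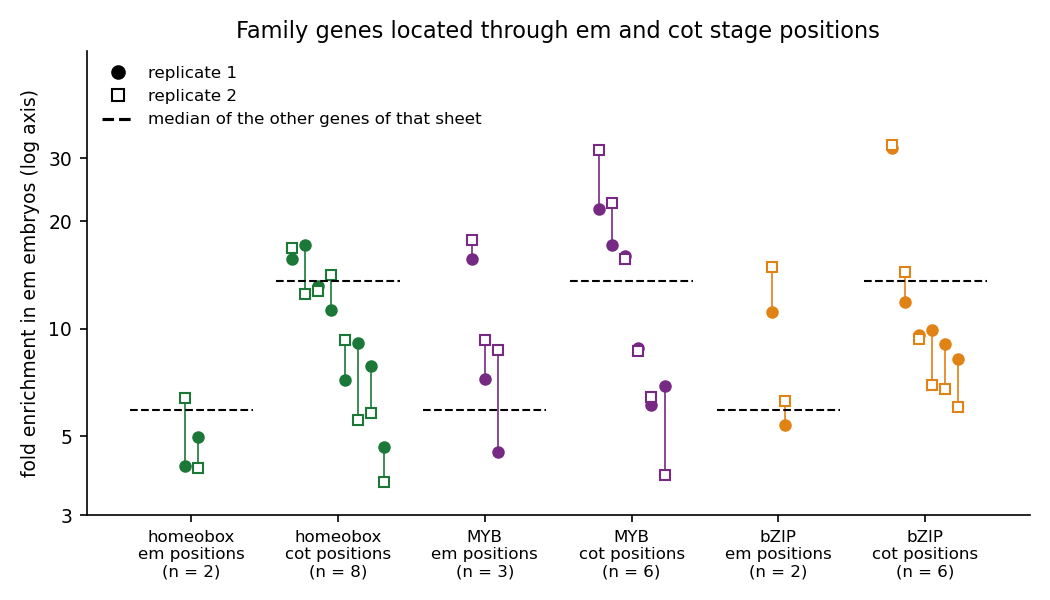
Fold enrichment in em stage embryos (y axis, log scale) of family genes located through em stage regions (the 7 genes) and through cot stage regions (20 genes), by family (x axis), in replicate 1 (filled circles) and replicate 2 (open squares), with a line joining the replicates of a gene. Dashed lines are medians of the other genes of each list, 5.92 and 13.6. The family genes of the cot stage list covered 3.71 to 32.7 and lay mostly below its dashed line.

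The copies of *MYB73* differed in strength. Soybean carries duplicated genomes. Of the 7 genes, 2 shared their Arabidopsis homolog with another gene on the cot stage list, here called a copy. The pairs were matched by this homolog alone, and whether they are duplicates of each other was not analysed. *MYB73* on chromosome 1 had a fold enrichment of 15.7 and 17.8 in replicates 1 and 2, against 6.12 and 6.46 at its copy on chromosome 14 (Glyma.14G058100; 4642218 to 4642585 in replicate 1). The chromosome 1 gene stood at 2.57 times the copy in replicate 1 and 2.75 times in replicate 2, a difference of means larger than the SDs (1.45 and 0.238).

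The *PAN* homologs were in the opposite relation. The chromosome 1 gene had a fold enrichment of 11.2 and 14.9 in replicates 1 and 2, against 32.1 and 32.7 at its copy on chromosome 2 (Glyma.02G097900; 8839193 to 8841738 in replicate 1). The chromosome 1 gene stood at 0.348 times the copy in replicate 1 and 0.456 times in replicate 2, again beyond the SDs (2.65 and 0.441). Both *PAN* homologs had wide peaks, with a mean of 1593 bp at the chromosome 1 gene and 2574 bp at the copy. The copy had the highest fold enrichment of the 20 genes. These copies were the only ones available through the rule, and all 4 loci had been listed as bound, so unbound copies could not enter this comparison. Both copies were found through the cot stage list, whose other genes had a median of 13.6, against 5.92 on the chromosome 1 list. *MYB73* was on both lists, whereas the chromosome 1 *PAN* homolog was not on the part of the cot stage list read here. The part of this selection in the *PAN* difference was not tested.

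Further genes of the cot stage list showed the spread within each family. Among homeobox genes, the highest were *homeobox protein 22* (Glyma.08G056700) at 16.3 ± 0.830 and a homolog of *ANTHOCYANINLESS2* (Glyma.10G238100) at 14.9 ± 3.30. The lowest were a homolog of the meristem gene *SHOOT MERISTEMLESS* (Glyma.09G007500) at 4.19 ± 0.679 and another *ANTHOCYANINLESS2* homolog (Glyma.03G016600) at 6.82 ± 1.43. These *ANTHOCYANINLESS2* homologs thus stood toward opposite ends of the family. A further homolog of that gene on the list had 7.33 ± 2.54, close to the lower one.

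Among MYB genes, *MYB39* (Glyma.09G206200), whose Arabidopsis homolog controls suberin in the root endodermis, had 26.6 ± 6.98, and *MYB15* (Glyma.02G005600), a lignin and stress regulator, had 19.8 ± 3.76. Leaving out the *MYB73* copy, the lowest were *MYB101* (Glyma.13G309200), a pollen tube gene in Arabidopsis, at 5.40 ± 2.12 and *MYB85* (Glyma.05G051700), a regulator of lignin in secondary walls, at 8.75 ± 0.0980. At *MYB101* the strongest peaks of the replicates had their summits 456 bp apart, so the pair need not be the same site. The highest bZIP genes after the *PAN* copy were the homolog of *bZIP17* (Glyma.07G017800), which acts in salt and endoplasmic reticulum stress in Arabidopsis, at 13.2 ± 1.79 and Glyma.15G049000 at 9.49 ± 0.154. The lowest were Glyma.10G223800 at 7.12 ± 1.52 and Glyma.12G036400 at 7.91 ± 1.62.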

How the data were processed

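According to the submitters' processing notes, Bowtie 0.12.7 and MACS2 (version not given in the sources used here) were used for alignment and for calling peaks, and each of the 2 ChIP replicates has a peak list of its own. The study's methods name MACS3 instead of MACS2, and which caller made the deposited lists was not settled here. The 2 input samples served as control. The peak names carry a q threshold of 0.01. The deposited fold enrichment, made by the authors, divides summit ChIP reads by the local background, with 1 added to both. The deposited lists also give −log10 p and −log10 q, and a display score of 10 times −log10 q that was not used. Notes with the gene lists name the Wm82.a2.v1 annotation, the sources used here do not give the alignment build, and positions are given 1-based.

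Summit reads and local background were solved from the deposited fold enrichment and −log10 p, within 0.001 for 100% of the peaks, with Python 3.11.15 and SciPy 1.17.1. The solution was checked on simulated peaks. Library totals are not analysed here, and summit reads stand for depth. Regions of the study's bound-gene lists, used only for positions and descriptions and held in part, were linked to deposited peaks by an overlap of at least 1 bp. The strongest fold enrichment per gene and replicate was kept and averaged over the replicates. Genes without a peak in both lists were left out of medians, except in ratios from 1 replicate alone, which used every gene with a peak in it.

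The named genes were the 7 genes, cot stage copies with the same Arabidopsis homolog, the 2 highest and 2 lowest other cot stage genes of each family, and the 3 strongest other genes. Members and lists were chosen with earlier results of these data known. No test was made, because membership used peaks of the same libraries and the inputs were not analysed by themselves. The labels call the ChIP replicates biological, and SDs are over these 2 values.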

Additional observations from a re-analysis of the deposited data

How the results depend on the processing

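The results recomputed under 8 alternatives were the number of genes with peaks in both replicates, the number among the strongest 10%, the family medians and the ratios to the other genes and to other TF genes. Of 56 values, 49 stayed within the spread between replicates or, for counts, within 1.5 times, without a change of direction in the ratios. Another 4 changed direction within that spread and 3 moved beyond these limits. Part of this outcome was fixed in advance. Leaving out a replicate could not lower a count. Nor could it move these family medians beyond a spread taken from the same 2 replicates. The 49 are therefore not read as a measure of stability. Restricting both lists to a −log10 q of at least 10 left 6 of the 7 genes, without *homeobox 24*. It turned the ratio to the other genes to 0.946 and the ratio to other TF genes to 0.763. The restriction also applied to the peaks of the other genes and other TF genes. Leaving out *homeobox 24*, the lowest gene by its mean, could by construction not lower the median of the genes kept. Leaving out each replicate gave ratios of 0.972 to 1.48 to the other genes and of 0.888 to 1.43 to other TF genes. With homeodomain descriptions added, most of them of MYB-related or trihelix genes, 11 genes had peaks in both replicates and the homeobox median was 5.44. The cause of these shifts was not tested, except that fewer or more genes entered by construction. Requiring at least 50% of the peak or its summit inside the listed region, choosing the strongest peak by −log10 q, and keeping regions listed for 1 gene changed no direction. No paired analysis was possible because the inputs had no peak list of their own and no result came from a test. With 20 to 136 reads at the strongest summits, the weaker genes could not be ranked.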

Other observations

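The replicates differed in direction between the genes of the 2 lists. Of the family genes located through cot stage regions, 8 of 20 had the higher fold enrichment in replicate 2, against 71.4% of the other genes on that list. At the chromosome 1 genes the corresponding values were 6 of 7, against 62.1% of the other genes. By family, the cot stage list gave 3 of 8 homeobox, 3 of 6 MYB and 2 of 6 bZIP genes, and chromosome 1 gave 1 of 2 homeobox, 3 of 3 MYB and 2 of 2 bZIP genes. The median ratio of replicate 2 to replicate 1 was 0.977 at the 20 genes and 1.16 at the other genes of their list, and 1.29 at the 7 genes and 1.09 at the other genes of theirs. No cause was tested.

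The 7 genes lay mostly toward the ends of chromosome 1, as did most other genes on the list. The listed regions of 3 genes began below 5 Mb and those of 3 genes above 50 Mb, and the *PAN* homolog lay between them. Of the 438 other genes on the list, 114 lay below 5 Mb, 159 above 50 Mb and 165 (37.7%) between.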
